A study of Mus musculus with 52 samples.

Results

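The 34 genes described here encode enzymes, transporters and accessory proteins of mitochondrial and peroxisomal fatty acid oxidation. The rule takes them by symbol and uses none of their values, and the list was drawn up with earlier results of these data known. They are 34 of the 24116 genes of a single expression table. All 34 had at least 1 RPKM (reads per kilobase of gene, scaled to the depth of the library) in at least 4 libraries, the filter for testing, as did 12443 genes of the table. The samples were intestinal organoids, epithelial cultures grown from single cells, from 2 wild type male C57BL/6 littermates of 8 weeks. They received DMSO, which serves here as the control, 10 µM all-trans retinoic acid (atRA), a form of vitamin A that activates RAR nuclear receptors, or 5 µM of an antagonist of the retinoid X receptors (RXRi). Treatment was given on day 0 and again on day 3, when all groups were moved to medium lacking the CHIR99021 (a GSK3 inhibitor), Y-27632 (a ROCK inhibitor) and Wnt3a-conditioned medium of the first days. RNA of 3 pooled wells was sequenced on days 1, 3, 4 and 5 for each treatment and on day 0 for DMSO, which gives 13 groups of 2 cultures, 1 per animal, with RNA prepared in duplicate from each.

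Fatty acids are burned in steps of the same kind. Acyl-CoA synthetases activate them, carnitine acyltransferases carry them into mitochondria, and repeated rounds of dehydrogenation, hydration, a further dehydrogenation and thiolytic cleavage shorten the chain and release acetyl-CoA. Peroxisomes run a parallel pathway for very long, branched and dicarboxylic chains. Absorptive enterocytes of the small intestine, which take up dietary fat, and intestinal stem cells both use the pathway. Many of its genes are known targets of the peroxisome proliferator-activated receptors (PPARs), which bind DNA as partners of the retinoid X receptors.

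The libraries used held 12895667 to 26206028 reads (median 19686970), with 14387 to 15800 genes above 0 in 51 libraries. The least covered gene of the 34, Hacl1, had at least 39 reads in each of them, so none of the 34 was near the limit of 3 reads. The second duplicate of culture 1 of day 1 DMSO held 12443 reads and was left out, so that culture rests on 1 library. Values below are the RPKM of culture 1 and culture 2, in that order, each the mean of its duplicates. Differences are log2 fold changes of RPKM + 1 with their standard error (limma, n = 2 cultures per group, Benjamini-Hochberg adjustment over 12443 genes, threshold 0.05), and "rose", "fell", "higher" and "lower" are used of genes that passed. The scale understates changes of low genes. Both treatments were compared with the same DMSO cultures, so their results are not independent of each other. The organoids are mixtures, so fewer cells of a type and less RNA per cell cannot be told apart. Of 21 markers of fibroblasts, blood cells, endothelium, fat and liver, 14 stayed below 1 RPKM in every library used, among them Col1a1, Ptprc, Cdh5 and Adipoq. The highest of the others were Ttr with up to 106, Vim with up to 23.9 and Cd68 with up to 7.63 RPKM. The summed fibroblast list, which holds Vim, had 22.8 and 19.3 RPKM on day 0 and 0.988 and 0.901 RPKM on day 3 in DMSO, and the liver list, which holds Ttr, 101 and 106 and 3.61 and 3.12 RPKM. Exons of some of the 34 genes overlap those of other annotated genes, over the longest stretches in Hacl1 (with Gm49387), Acadvl (with Dvl2), Acsl1 (with Gm45244) and Etfb (with Gm45233). Whether counting used strand is not stated, and such reads cannot be assigned with certainty.

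RefSeq promoter sequences (GRCm38.p6, the patch series of the mm10 build) were found for 29 of the 34 genes, with 31 start sites. The 250 bases before each start were searched on both strands for AGGTCA, the half-site that nuclear receptors bind, and for GGGCGG, the GC box bound by Sp1-type factors. AGGTCA was present for 3 of the 29 genes, Acadm, Acadvl and Echs1, against 14% of all 32851 promoters, and the pair of half-sites AGGTCANAGGTCA, the form that PPARs bind with their partner, for 0 of 29 against 0.0335% of all. The looser AGGNCANAGGNCA and the extended half-site TCAAGGTCA, which overlaps AGGTCA, were also in 0 of 29, against 0.338% and 0.387% of all promoters. GGGCGG was present for 20 of the 29 genes, against 32.7% of all promoters. The windows of these genes had a median GC content of 58.8% and 14 CpG, against 52.4% and 6 over all promoters. The letters say only what is in this window. The paired and extended patterns are so rare among all promoters that 0 of 29 is the usual outcome, so these zeros set the genes apart in no way. The 3 windows with a half-site are shown with it in capitals (TGACCT where it lies on the other strand), because the treatments gave different calls in these 3 genes. Acadm had its half-site at 249, Acadvl at 87 and Echs1 at 83 bases before the start.
Acadm, GRCm38.p6 chr3:153944644-153944893, minus strand: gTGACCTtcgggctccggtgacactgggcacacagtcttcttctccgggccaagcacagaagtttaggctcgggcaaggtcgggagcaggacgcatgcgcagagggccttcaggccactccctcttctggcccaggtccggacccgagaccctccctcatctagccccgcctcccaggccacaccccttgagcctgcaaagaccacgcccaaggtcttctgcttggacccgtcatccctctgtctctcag
Acadvl, GRCm38.p6 chr11:70015429-70015678, minus strand: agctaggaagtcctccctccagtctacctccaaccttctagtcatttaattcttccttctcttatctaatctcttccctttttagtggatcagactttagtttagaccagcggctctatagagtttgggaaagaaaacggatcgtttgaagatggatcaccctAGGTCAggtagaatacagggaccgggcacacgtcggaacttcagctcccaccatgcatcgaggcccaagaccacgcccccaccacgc
Echs1, GRCm38.p6 chr7:140116422-140116671, minus strand: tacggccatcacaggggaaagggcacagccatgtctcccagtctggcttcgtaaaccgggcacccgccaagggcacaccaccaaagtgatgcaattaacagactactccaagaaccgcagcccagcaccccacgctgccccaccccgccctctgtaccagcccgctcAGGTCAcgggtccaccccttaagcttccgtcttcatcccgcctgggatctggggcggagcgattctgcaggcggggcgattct
The windows of Hadhb and Ehhadh, genes of the mitochondrial and of the peroxisomal pathway, are shown with their GC boxes in capitals (CCGCCC where on the other strand). They begin 90 and 25 bases before the start in Hadhb, and 91 and 10 bases before it in Ehhadh.
Hadhb, GRCm38.p6 chr5:30155003-30155252, plus strand: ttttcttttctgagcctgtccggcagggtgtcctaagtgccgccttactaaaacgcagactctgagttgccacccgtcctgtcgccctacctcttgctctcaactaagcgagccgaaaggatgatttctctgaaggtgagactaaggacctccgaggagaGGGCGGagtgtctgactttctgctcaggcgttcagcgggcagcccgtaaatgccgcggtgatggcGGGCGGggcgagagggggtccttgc
Ehhadh, GRCm38.p6 chr16:21787835-21788084, minus strand: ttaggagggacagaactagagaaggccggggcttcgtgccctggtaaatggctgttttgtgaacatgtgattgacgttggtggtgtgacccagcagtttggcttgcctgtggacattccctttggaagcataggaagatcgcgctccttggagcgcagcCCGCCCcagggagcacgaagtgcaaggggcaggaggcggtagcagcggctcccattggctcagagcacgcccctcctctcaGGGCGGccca
Hadha and Hadhb, the subunits of the mitochondrial trifunctional protein, start head to head on chromosome 5, at 30154980 on the minus strand and 30155253 on the plus strand, so that the 272 bases between them lie upstream of both.

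The level of the genes differed widely within the pathway. Averaged over the 13 groups, Acsl5, an acyl-CoA synthetase, was the most abundant with 268 RPKM. It was followed by Acaa2, the thiolase of the mitochondrial pathway, with 208 RPKM and Ech1, a dienoyl-CoA isomerase, with 179.6 RPKM. Hacl1, which splits branched and hydroxylated acyl-CoA in peroxisomes, was the lowest with 3.56 RPKM. The widest ranges between the lowest and the highest group were those of peroxisomal genes and Acad11. The peroxisomal thiolase gene Acaa1b ranged 60.0-fold, from 6.78 to 407 RPKM. The peroxisomal bifunctional enzyme gene Ehhadh ranged 23.2-fold, Acad11 12.9-fold and Pex11a, which drives peroxisome division, 10.9-fold. Etfa, which passes electrons from the dehydrogenases to the respiratory chain, ranged 1.81-fold. In GRCm38.p6 Acaa1b lies at chr9:119148043-119157093, Ehhadh at chr16:21761285-21787834, Acad11 at chr9:104063724-104127656, Pex11a at chr7:79735957-79743131 and Hadh, described further on, at chr3:131233419-131272101. For 29 of the 34 genes the highest group was atRA on day 4 (17 genes) or day 5 (12 genes). The lowest was day 1 DMSO for 18 genes and day 5 RXRi for 5.

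**Figure D1:**
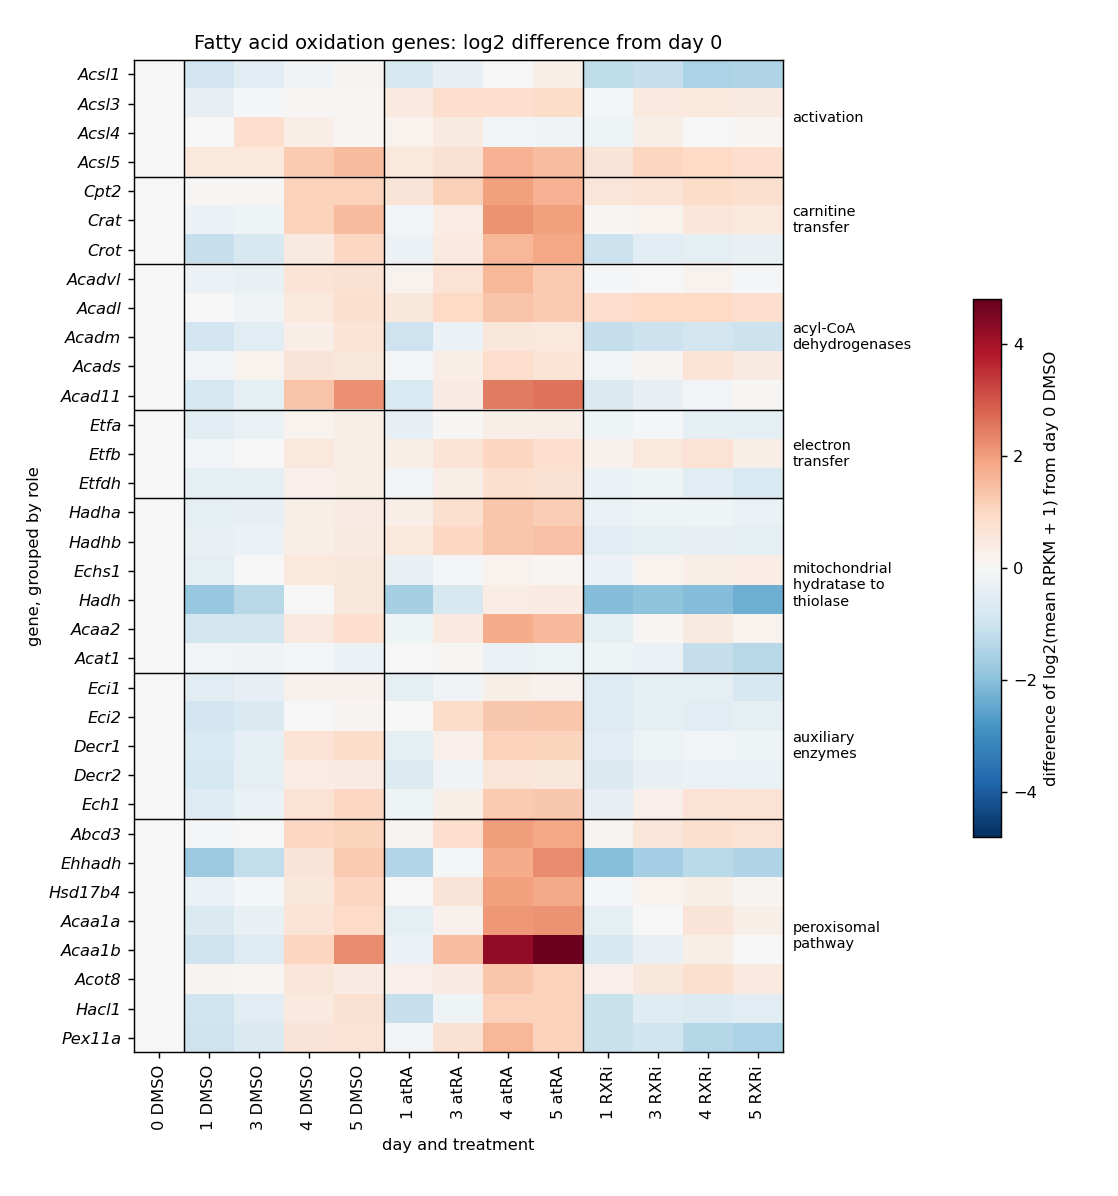
Difference of log2(mean RPKM + 1) from day 0 DMSO (colour) for the 34 genes (rows, by role) in the 13 day and treatment groups (columns); each cell is a mean of 2 cultures. The atRA columns of days 4 and 5 are the reddest for 29 genes, and the row of Acaa1b spans the widest range, 60.0-fold in RPKM.

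Summed over the 34 genes, the 3 treatments were apart on days 1, 3, 4 and 5. The sum was 1688 and 1791 RPKM on day 0 and 1300.2 and 1286 RPKM on day 1 in DMSO. On day 1 it was 1637 and 1718 RPKM in atRA and 1529 and 1519 RPKM in RXRi. On day 3 it was 1472 and 1405 RPKM in DMSO, 2459 and 2335 RPKM in atRA and 1917 and 1875 RPKM in RXRi. On day 4 it was 2538 and 2534 RPKM in DMSO, 4209 and 4749 RPKM in atRA and 2035 and 2080 RPKM in RXRi. On day 5 it was 3006 and 2922 RPKM in DMSO, 3812 and 4872 RPKM in atRA and 1861 and 1818 RPKM in RXRi. The cultures did not overlap between the treatments on any of these days. The RXRi sum lay above DMSO on days 1 and 3 and below it on days 4 and 5. The most abundant genes weigh most in these sums. On day 1 with RXRi 5 of the 34 genes were higher and 1 lower, where 10.5% and 9.93% of all genes were. The 2 cultures differed most in day 5 atRA, by a median of 0.282 on the log2 scale over the 34 genes, and by 1.05 for Crat. Culture 2 was the higher one there for the summed level.

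In DMSO organoids most of the genes fell within a day of seeding and rose after the medium change. On day 1, 24 of 34 were lower than on day 0 and 1 was higher, where 35.6% and 25.6% of all genes tested were lower and higher. The median difference was -0.51 for the 34 and -0.09 for all genes. With the shallow library kept, 19 were lower and 1 higher. Hadh, the short-chain hydroxyacyl-CoA dehydrogenase, went from 106 and 122 RPKM to 32.5 and 30.9 RPKM, a difference of -1.81 ± 0.14 (adjusted p = 1.8e-08). Ehhadh went from 23.9 and 24.6 to 5.93 and 7.22 RPKM, a difference of -1.74 ± 0.11 (adjusted p = 1.9e-09). Both cultures fell for both genes. Crot, the peroxisomal carnitine octanoyltransferase, fell as well (-1.11 ± 0.11), with Pex11a (-1.02 ± 0.14), Acaa1b (-0.99 ± 0.22) and Hacl1 (-0.97 ± 0.12, adjusted p of the 4 from 3.6e-07 to 0.00086). Acsl5 was the gene that rose, from 139 and 135 to 195 and 192 RPKM, by 0.49 ± 0.16 (adjusted p = 0.015). Its adjusted p was 0.069 without culture 2 of day 0 DMSO, 0.064 without culture 1 of day 1 DMSO and 0.051 without culture 2 of day 1 DMSO, so the call was lost without any of these 3 cultures.

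Fewer genes moved from day 1 to day 3. In all, 10 rose and 0 fell, where 6.19% and 6.49% of all genes did, with a median of 0.26 against -0.0044 for all genes. This count was 0 without culture 1 of day 3 DMSO and 3 without either culture of day 1 DMSO, and 6 with the shallow library kept. Echs1, the enoyl-CoA hydratase, went from 23.8 and 23.7 to 35.8 and 31.1 RPKM, a difference of 0.47 ± 0.10 (adjusted p = 0.0039). Its adjusted p was 0.088 without culture 1 of day 3 DMSO. The genes that did not pass included Acad11, with a difference of 0.42 ± 0.15 (adjusted p = 0.076), and Acaa1b, with 0.36 ± 0.22 (adjusted p = 0.34).

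The largest step in DMSO came between days 3 and 4, after the medium change. 31 of the 34 genes rose, among them all 8 of the peroxisomal pathway and all 5 acyl-CoA dehydrogenases, where 20.5% of all genes rose and 34.3% fell. The median was 0.77 against -0.10 for all genes. Acad11, a dehydrogenase of long acyl chains, went from 7.73 and 7.11 to 26.4 and 30.7 RPKM, a rise of 1.81 ± 0.15 (adjusted p = 7.1e-08). Ehhadh went from 11.4 and 8.90 to 37.2 and 37.9 RPKM, a rise of 1.80 ± 0.11 (adjusted p = 4.7e-09). Acaa1b went from 8.37 and 9.63 to 26.6 and 34.6 RPKM, a rise of 1.65 ± 0.22 (adjusted p = 1e-05). In these 3 genes every day 4 culture lay above every day 3 culture. Hadh rose by 1.37 ± 0.14, Crat, the carnitine acetyltransferase, by 1.33 ± 0.21 and Acaa2 by 1.32 ± 0.13. Acsl4, the synthetase that prefers arachidonate, was the gene that fell (-0.48 ± 0.20, adjusted p = 0.048). The adjusted p of Acsl4 was 0.28 without culture 1 of day 3 DMSO and 0.27 without culture 2 of day 4 DMSO, and 0.16 when libraries were scaled by median of ratios. Acsl3 (0.15 ± 0.14) and Acat1 (0.06 ± 0.10) did not pass.

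Fewer genes rose from day 4 to day 5. 6 genes were higher on day 5 than on day 4 and 0 lower, where 2.11% and 1.33% of all genes were, and the count was 3 without culture 1 or culture 2 of day 4 DMSO or culture 1 of day 5 DMSO. Acaa1b went from 26.6 and 34.6 to 72.7 and 75.8 RPKM, a rise of 1.26 ± 0.22 (adjusted p = 0.0035). Ehhadh went from 37.2 and 37.9 to 58.0 and 60.7 RPKM, a rise of 0.65 ± 0.11 (adjusted p = 0.0035). With the shallow library kept, 0 genes passed. Against day 0, 27 genes were higher on day 5 and 1 was lower, where 18.7% and 51.1% of all genes were. The median was 0.68 against -0.31 for all genes. Acaa1b rose by 2.28 ± 0.22, Acad11 by 2.18 ± 0.15, Crat by 1.53 ± 0.21, Acsl5 by 1.51 ± 0.16 and Ehhadh by 1.26 ± 0.11. Hadh, which had fallen most on day 1, had 157 and 178 RPKM on day 5 and 106 and 122 RPKM on day 0. Median-of-ratios scaling moved the median of all genes from -0.31 to 0.02 in this comparison, and with it 32 of the 34 were higher and 0 lower. Acat1, the mitochondrial acetoacetyl-CoA thiolase, was the gene that fell (-0.27 ± 0.10, adjusted p = 0.019). Its difference was 0.10 (adjusted p = 0.37) with that scaling, and its adjusted p was 0.089 without culture 2 of day 0 DMSO and 0.25 without culture 1 of day 5 DMSO.

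Markers of cell types moved at the same steps. For comparison, 25.6% of all genes were higher and 35.6% lower on day 1 than on day 0. Between days 3 and 4, 20.5% rose and 34.3% fell. Of 10 enterocyte markers (Alpi, Sis, Apoa4, Fabp2 and others), 9 rose between days 3 and 4 in DMSO and 0 fell, and their summed level went from 289 and 305 to 1868 and 2068 RPKM and to 5465 and 6205 RPKM on day 5. Of 6 markers of fetal-like or regenerating epithelium (Ly6a, Anxa1, Clu and others), 5 fell between days 3 and 4. All 6 had risen on day 1, their sum going from 52.4 and 35.8 to 1310.0 and 1283 RPKM. Between days 0 and 1 the enterocyte sum went from 590.4 and 648 to 345 and 379 RPKM, with 6 of 10 lower, and that of 5 stem cell markers from 1178 and 1153 to 129.6 and 125 RPKM, with 4 lower and 1 higher. Between days 3 and 4 all 5 goblet cell markers rose, from a sum of 526 and 525 to 1233 and 1177 RPKM, and all 6 proliferation markers fell, from 578 and 601 to 291 and 313 RPKM. The part of these markers in the changes of the fatty acid oxidation genes was not tested.

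Most of the pathway was higher with retinoic acid. Averaged over the 4 days, 28 of 34 genes were higher than in DMSO and 1 was lower, where 7.98% of all genes tested were higher and 15% lower. The median was 0.53 against -0.04 for all genes. All 8 genes of the peroxisomal pathway rose, as did all 3 carnitine acyltransferases, all 3 electron transfer genes, 4 of 5 auxiliary enzymes, 4 of 5 acyl-CoA dehydrogenases, 4 of 6 mitochondrial enzymes from hydratase to thiolase and 2 of 4 acyl-CoA synthetases. The largest mean effects were those of Acaa1b (2.11 ± 0.11), Eci2 (1.25 ± 0.05), Crot (1.03 ± 0.06), Hadhb (1.02 ± 0.04), Acaa2 (1.01 ± 0.06) and Hadha (0.94 ± 0.03), with adjusted p from 5.8e-12 to 3.2e-09. These 6 calls held with each culture left out in turn. The lower gene was Echs1 (-0.18 ± 0.05, adjusted p = 0.017), with an adjusted p of 0.052 without culture 1 of day 3 DMSO and 0.05 without culture 1 of day 4 DMSO, and of 0.14 with median-of-ratios scaling.

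By day, 11, 21, 23 and 16 of the 34 genes were higher with atRA on days 1, 3, 4 and 5. The shares of all genes higher were 1.93%, 4.32%, 3.58% and 2.14%, and the shares lower 1.53%, 4.36%, 7.35% and 2.89%. The medians of the 34 were 0.27, 0.70, 0.74 and 0.39, against -0.0052, -0.04, -0.12 and 0.0018 for all genes. Of the 34, 25 were higher on at least 1 day. The 9 genes that were higher on all 4 days were Acsl3, Cpt2, Crot, Acadvl, Acadl, Hadha, Hadhb, Acaa2 and Eci2, which lie at every step from activation to thiolysis. Of all genes, at most the 1.93% of day 1 can have been higher on all 4 days. The share of all genes higher on at least 1 day is not given, but it cannot exceed the sum of the 4 daily shares above. The day 1 count was 7 without culture 1 or culture 2 of day 1 DMSO or culture 2 of day 1 atRA, and 6 with the shallow library kept. With that library kept, 13 and 10 genes passed on days 4 and 5. With median-of-ratios scaling 28 genes were higher on day 4 and 0 lower.

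**Figure D2:**
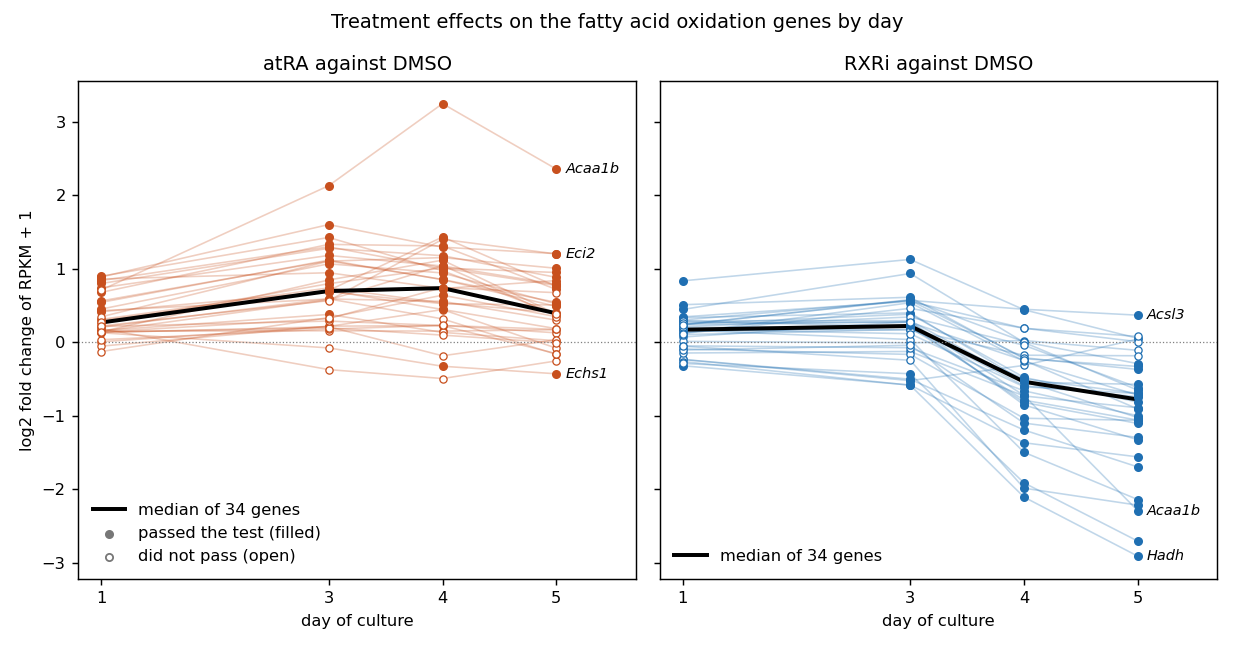
Log2 fold change of RPKM + 1 against DMSO for each of the 34 genes (thin lines) on days 1, 3, 4 and 5 of culture, with atRA on the left and RXRi on the right; filled points passed the limma test, open points did not, and the black line is the median of the 34 genes. The atRA median stays above 0, from 0.27 to 0.74, while the RXRi median goes from 0.17 on day 1 to -0.78 on day 5.

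The trifunctional protein genes rose on the first day and stayed up. Hadha, which carries the hydratase and dehydrogenase of long chains, had 48.4 and 50.2 RPKM on day 1 in DMSO and 79.3 and 86.8 RPKM in atRA, a difference of 0.74 ± 0.07 (adjusted p = 4.8e-06). On day 3 it had 51.5 and 50.0 against 118 and 114 RPKM, and on day 5 88.0 and 87.9 against 148 and 158 RPKM. Hadhb, which carries the thiolase of the same complex, had 34.3 and 33.0 RPKM on day 3 in DMSO and 85.2 and 83.2 RPKM in atRA, a difference of 1.30 ± 0.09 (adjusted p = 6.7e-08). On day 5 the difference of Hadhb was 0.95 ± 0.09 (adjusted p = 4.7e-06). The lowest atRA culture lay above the highest DMSO culture on each of these days for both genes. With the shallow library kept, the day 1 calls of both genes were lost (adjusted p = 0.087 for each).

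Acaa2 and Eci2 rose as early. Eci2, an enoyl-CoA isomerase for unsaturated chains, had 25.4 and 27.1 RPKM in DMSO and 47.3 and 51.6 RPKM in atRA on day 1, and 31.6 and 29.1 against 101 and 87.2 RPKM on day 3. The differences were 0.89 ± 0.10 (adjusted p = 5e-05) and 1.60 ± 0.10 (adjusted p = 2.8e-08). Acaa2 had 81.7 and 81.2 RPKM in DMSO and 212 and 200.0 RPKM in atRA on day 3, a difference of 1.33 ± 0.13 (adjusted p = 1.8e-06), and 1.31 ± 0.13 on day 4. The cultures did not overlap in either gene. Eci1, the mitochondrial isomerase of the same reaction as Eci2, did not pass on any of the 4 days, with 41.1 and 46.1 RPKM in DMSO and 50.2 and 49.8 RPKM in atRA on day 3.

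Crot and Acsl3 rose among the genes of the first steps. Crot had 5.91 and 6.50 RPKM in DMSO and 10.4 and 12.8 RPKM in atRA on day 1, and 21.6 and 18.3 against 45.3 and 47.2 RPKM on day 4. The differences were 0.80 ± 0.11 (adjusted p = 0.00032) and 1.18 ± 0.11 (adjusted p = 3.4e-06). With the shallow library kept, the day 1 adjusted p of Crot was 0.087. Acsl3, a synthetase of the endoplasmic reticulum and lipid droplets, had 34.8 and 35.8 RPKM in DMSO and 60.1 and 70.2 RPKM in atRA on day 1, a difference of 0.86 ± 0.14 (adjusted p = 0.0014). Acsl1, Acsl4 and Acsl5, the other synthetases, did not pass on any day. On day 4 Acsl1 passed with median-of-ratios scaling (0.32, adjusted p = 0.037), and Acsl5 (0.44 ± 0.16, adjusted p = 0.088) had an adjusted p of 0.0057 with duplicates as rows and of 0.049 without culture 1 of day 4 DMSO. Acsl5 had 420.4 and 363 RPKM in DMSO and 291 and 469.6 RPKM in atRA on day 5, so that the cultures overlapped. Acsl4 had a day 4 difference of -0.49 ± 0.20, with an adjusted p of 0.11 and of 0.033 with the culture as a block, and of 0.022 with duplicates as rows. Its mean difference was -0.23 ± 0.10, with an adjusted p of 0.1 and of 0.024 with the block. Crat missed the threshold on day 3 (0.58 ± 0.21, adjusted p = 0.12) and had an adjusted p of 0.046 with the block.

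Calls with atRA are given here for each acyl-CoA dehydrogenase by chain length, with no test of the difference between them. Acad11, for long chains, was higher on at least 1 day but did not pass on day 5. Acadvl, for very long chains, had 52.8 and 52.2 RPKM in DMSO and 118 and 104 RPKM in atRA on day 3. Acadl, for long chains, had 72.0 and 68.9 against 152 and 155 RPKM. Both were higher on all 4 days. Acadm, for medium chains, had 42.8 and 37.6 against 46.9 and 46.8 RPKM on day 3 and 95.9 and 87.4 against 78.3 and 86.2 RPKM on day 5. Acads, for short chains, had 47.8 and 49.5 against 57.8 and 52.7 RPKM on day 3. Neither passed on any day, but with median-of-ratios scaling both did on day 4, Acadm (0.39, adjusted p = 0.026) and Acads (0.40, adjusted p = 0.014). Over the 4 days Acads (0.14 ± 0.04, adjusted p = 0.028) and the synthetase gene Acsl1 (0.16 ± 0.05, adjusted p = 0.022), named after their values were seen, were higher. The call of Acads was lost without culture 2 of day 1 DMSO, culture 1 of day 3, 4 or 5 DMSO, culture 1 of day 1 or 3 atRA or culture 2 of day 4 atRA (adjusted p from 0.057 to 0.083). That of Acsl1 was lost without culture 2 of day 3 DMSO or of day 1, 3 or 4 atRA (0.053 to 0.061). Keeping the shallow library gave 0.94 and 0.26. Echs1, the hydratase of short chains, was the gene that was lower with atRA. It had 51.8 and 45.5 against 36.8 and 34.8 RPKM on day 5, a difference of -0.43 ± 0.10 (adjusted p = 0.016). Its adjusted p there was 0.22 without culture 1 of day 5 DMSO and 0.062 without culture 2 of day 5 atRA. On day 4 its difference was -0.33 ± 0.10 (adjusted p = 0.046), with an adjusted p of 0.29 without culture 1 of day 4 DMSO, 0.083 without culture 1 of day 4 atRA and 0.25 without culture 2 of day 4 atRA. With median-of-ratios scaling the day 4 value was 0.45.

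More of the peroxisomal genes passed on the later days. 1 of the 8 was higher on day 1, 5 on day 3, 8 on day 4 and 5 on day 5. Pex11a was the gene that was higher on day 1, with 4.23 and 5.68 RPKM in DMSO and 9.67 and 10.4 RPKM in atRA, a difference of 0.90 ± 0.14 (adjusted p = 0.00098). Acaa1b had 8.37 and 9.63 RPKM in DMSO and 39.5 and 45.9 RPKM in atRA on day 3, a difference of 2.13 ± 0.22 (adjusted p = 3.9e-06). On day 4 it had 26.6 and 34.6 against 265 and 330.0 RPKM, a difference of 3.24 ± 0.22 (adjusted p = 5.5e-08). On day 5 it had 72.7 and 75.8 against 272 and 541 RPKM, a difference of 2.35 ± 0.22 (adjusted p = 3.8e-06). Every atRA culture was above every DMSO culture, and the atRA cultures of day 5 differed widely. On day 1 its difference was 0.71 ± 0.22 (adjusted p = 0.098), with an adjusted p of 0.032 with the culture as a block.

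Acaa1a, the copy of the same thiolase, had 54.6 and 77.0 RPKM in DMSO and 147 and 204 RPKM in atRA on day 4, a difference of 1.40 ± 0.19 (adjusted p = 0.00019), and one of 1.20 ± 0.19 (adjusted p = 0.0012) on day 5. Acaa1a and Acaa1b are near-identical copies on chromosome 9, so the division of reads between them is uncertain. Both lay above DMSO in every culture with atRA on days 3, 4 and 5. Hsd17b4, the D-bifunctional protein of peroxisomes, had 65.0 and 68.6 RPKM in DMSO and 168 and 197 RPKM in atRA on day 4, a difference of 1.43 ± 0.12 (adjusted p = 9e-07). Ehhadh, the L-bifunctional enzyme, had 58.0 and 60.7 RPKM and 110.3 and 131 RPKM on day 5, a difference of 1.01 ± 0.11 (adjusted p = 2.6e-05). With the shallow library kept, that adjusted p was 0.24. Acot8, a peroxisomal thioesterase, had 10.8 and 12.6 against 14.7 and 25.0 RPKM on day 5, a difference of 0.67 ± 0.20 with an adjusted p of 0.071 and of 0.022 with the block. The summed level of the 8 peroxisomal genes on day 5 was 472 and 465 RPKM in DMSO and 884 and 1409.6 RPKM in atRA.

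**Figure D3:**
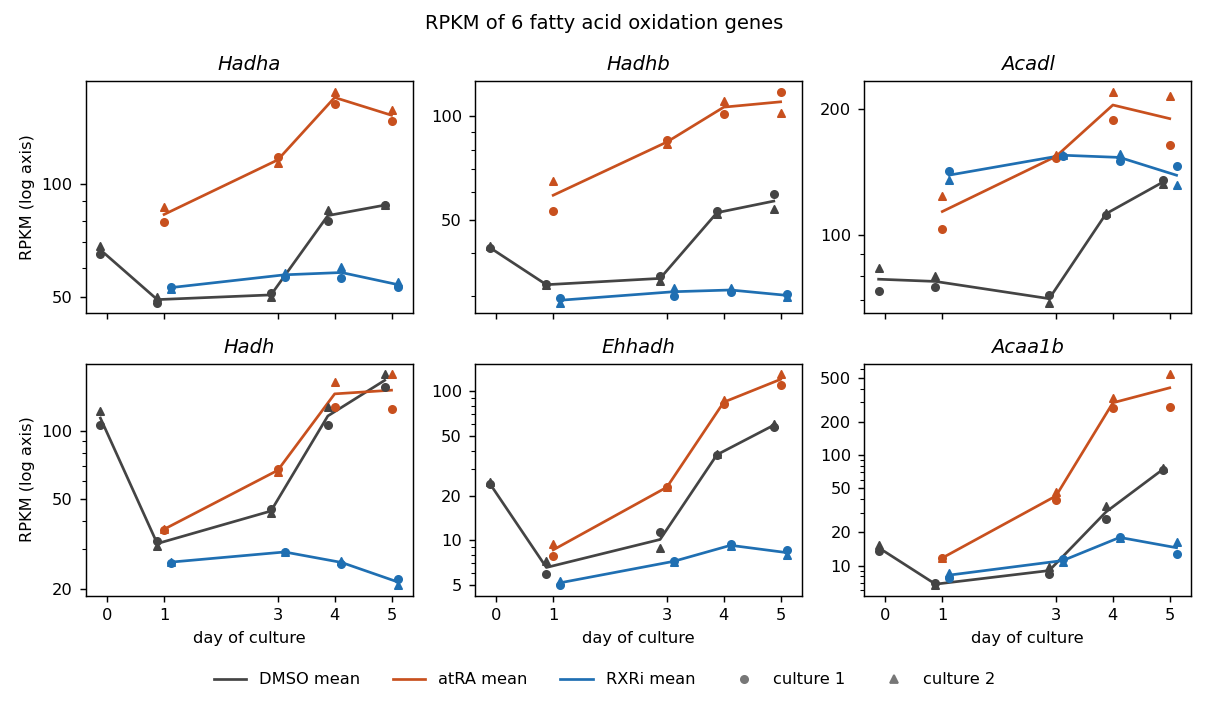
RPKM on a log axis by day of culture for 6 of the genes in DMSO, atRA and RXRi; points are the 2 cultures and lines their mean. In the panel of Acaa1b the atRA cultures reach 265 and 330.0 RPKM on day 4, and in the panel of Hadh the RXRi cultures lie at 22.1 and 20.8 RPKM on day 5 against 157 and 178 RPKM in DMSO.

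With the receptor antagonist some genes were higher early and most were lower late. 5 and 13 of the 34 genes were higher than in DMSO on days 1 and 3, and 1 and 5 were lower. On days 4 and 5, 2 and 1 were higher and 20 and 27 lower. The shares of all genes higher were 10.5%, 18.4%, 22% and 28.7% on the 4 days, and the shares lower 9.93%, 25.4%, 37% and 35.1%. The day 1 higher count was close to the share of all genes, and the lower counts of days 1 and 3 lay below theirs. The medians of the 34 were 0.17, 0.22, -0.54 and -0.78, against -0.0038, -0.07, -0.13 and -0.06 for all genes. Median-of-ratios scaling moved the median of all genes from -0.12 to 0.02 for atRA and from -0.13 to -0.011 for RXRi on day 4, and in DMSO from -0.10 to 0.02 between days 3 and 4. Averaged over the 4 days 6 were higher and 21 lower, where 30.1% and 42.8% of all genes were. The higher counts moved with single cultures. They were 1 to 3 on day 1 with a culture left out, 7 on day 3 without culture 2 of day 3 DMSO, and 8 without either culture of day 3 RXRi. The lower count of day 3 was 3 without culture 1 of day 3 DMSO. Median-of-ratios scaling left 3 higher on day 1 and 24 lower on day 5, and keeping the shallow library left 6 higher and 4 lower on day 1.

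Acadl was the gene with the largest rise with RXRi on days 1 and 3. It had 75.2 and 79.7 RPKM in DMSO and 142 and 135 RPKM in RXRi on day 1, and 72.0 and 68.9 against 154 and 156 RPKM on day 3. The differences were 0.83 ± 0.11 (adjusted p = 5.2e-05) and 1.13 ± 0.11 (adjusted p = 5.9e-07), and the cultures did not overlap. On day 4 the difference was 0.44 ± 0.11 (adjusted p = 0.0031), and on day 5 the levels were 135 and 132 in DMSO and 146 and 131 RPKM in RXRi, which did overlap. Acaa2 had 81.7 and 81.2 RPKM in DMSO and 156 and 157 RPKM in RXRi on day 3, a difference of 0.93 ± 0.13 (adjusted p = 1.5e-05), and by day 5 255 and 269 against 162 and 171 RPKM. Cpt2, the inner carnitine palmitoyltransferase, rose by 0.61 ± 0.12 (adjusted p = 0.00072) on day 3, Ech1 by 0.58 ± 0.10 (adjusted p = 0.0002) and Abcd3, a transporter of the peroxisomal membrane, by 0.57 ± 0.13 (adjusted p = 0.0017). Of the 13 genes higher on day 3, 10 were lower on day 5. The exceptions were Acsl3, Acadl and Etfb. Among the 34 genes as a whole 27 were lower on day 5, so a rise on day 3 did not set these 10 apart. Of all genes 35.1% were lower on day 5. How many of all genes higher on day 3 were lower on day 5 is not given. With median-of-ratios scaling Cpt2, Ech1 and Abcd3 no longer passed on day 5 (adjusted p = 0.089, 0.073 and 0.073), which leaves 7 of the 13. With that scaling 24 of the 34 were lower on day 5. Acsl3 was higher on day 5 by 0.37 ± 0.14 (adjusted p = 0.033), with an adjusted p of 0.23 without culture 2 of day 5 DMSO and 0.24 without culture 1 of day 5 RXRi.

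With RXRi 5 of the 34 genes were lower on day 3, a smaller share than the 25.4% of all genes, namely Acsl1, Acsl4, Acadm, Hadh and Ehhadh. Hadh had 45.3 and 43.2 RPKM in DMSO and 29.1 and 29.2 RPKM in RXRi, a difference of -0.58 ± 0.14 (adjusted p = 0.003). Acadm had 42.8 and 37.6 against 26.3 and 29.9 RPKM, a difference of -0.50 ± 0.09 (adjusted p = 0.00033). Both cultures were lower in both genes. Acsl1, which supplies acyl-CoA to mitochondria in many tissues, was lower on all 4 days, with differences of -0.32 ± 0.09 (adjusted p = 0.021) on day 1, -0.58 ± 0.09 (adjusted p = 9.2e-05) on day 3 and -1.37 ± 0.09 (adjusted p = 1.6e-09) on day 4. On day 1 the adjusted p of Acsl1 was 0.082 without culture 1 of day 1 DMSO, 0.11 without culture 2 of day 1 DMSO, 0.072 without culture 1 of day 1 RXRi and 0.12 without culture 2 of day 1 RXRi. The call of Ehhadh on day 3 (-0.43 ± 0.11, adjusted p = 0.005) had an adjusted p of 0.1 without culture 1 of day 3 DMSO. That of Acsl4 (-0.52 ± 0.20, adjusted p = 0.042) had one of 0.26 without culture 1 of day 3 DMSO, 0.055 without culture 1 of day 3 RXRi and 0.24 without culture 2 of day 3 RXRi.

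By days 4 and 5 the fall with RXRi was broad, and 20 genes were lower on both days. Of all genes, at most the 35.1% of day 5 can have been lower on both. On day 5, the genes lower were 3 of 3 carnitine acyltransferases, 3 of 5 dehydrogenases, 2 of 3 electron transfer genes, 5 of 6 mitochondrial enzymes from hydratase to thiolase, 5 of 5 auxiliary enzymes, 7 of 8 peroxisomal genes and 2 of 4 synthetases. With median-of-ratios scaling the carnitine acyltransferases had 2, the auxiliary enzymes 4 and the peroxisomal genes 6. Hadh had 106 and 127 RPKM in DMSO and 25.9 and 26.5 RPKM in RXRi on day 4, a difference of -2.11 ± 0.14 (adjusted p = 1.2e-09). On day 5 it had 157 and 178 against 22.1 and 20.8 RPKM, a difference of -2.91 ± 0.14 (adjusted p = 1.1e-11). Ehhadh had 58.0 and 60.7 against 8.57 and 7.95 RPKM, a difference of -2.70 ± 0.11 (adjusted p = 1.3e-12). The groups were far apart in both genes, a mitochondrial and a peroxisomal hydroxyacyl-CoA dehydrogenase.

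The other large falls on day 5 were in the peroxisome and among the dehydrogenases. Acaa1b had 72.7 and 75.8 RPKM in DMSO and 12.6 and 16.3 RPKM in RXRi, a difference of -2.29 ± 0.22 (adjusted p = 7.9e-08). Pex11a had 17.8 and 19.0 against 3.24 and 3.11 RPKM, a difference of -2.22 ± 0.14 (adjusted p = 5.4e-10), and one of -1.98 ± 0.14 on day 4. Acad11 had 51.8 and 49.8 against 11.4 and 10.1 RPKM, a difference of -2.14 ± 0.15 (adjusted p = 1.2e-09). None of the cultures overlapped, and these calls held with each culture left out. Acadm had 95.9 and 87.4 against 28.9 and 26.3 RPKM, a difference of -1.70 ± 0.09 (adjusted p = 5.6e-11). Acadvl had 110.3 and 116 against 61.7 and 66.4 RPKM, and Hadha 88.0 and 87.9 against 53.2 and 54.8 RPKM. Acads, with 61.6 and 65.9 against 55.6 and 62.4 RPKM, and Echs1, with 51.8 and 45.5 against 44.7 and 40.7 RPKM, did not pass, with differences of -0.11 ± 0.09 and -0.18 ± 0.10. Acsl4, Acads, Etfb, Echs1 and Acot8 were the 5 genes that did not pass on either day, of which Etfb was higher on day 4 with median-of-ratios scaling (0.34, adjusted p = 0.031).

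Both treatments are set side by side here for a few genes. Acadm was lower with RXRi from day 3 and Acsl1 from day 1. With atRA neither passed on any day, except on day 4 with median-of-ratios scaling, and Acsl1 was higher over the 4 days. Hadhb had 34.3 and 33.0 RPKM in DMSO, 85.2 and 83.2 RPKM in atRA and 29.9 and 31.6 RPKM in RXRi on day 3. Hadha, its partner across the 272 bases between their starts, had 51.5 and 50.0, 118 and 114 and 56.7 and 58.0 RPKM. The calls of the 3 genes whose half-site windows are shown above follow. The windows were shown because these calls differ, and any part of the half-site in them was not tested. Acadvl was higher with atRA on all 4 days, and with RXRi it was higher on day 3 and lower on days 4 and 5. Acadm passed with atRA only with median-of-ratios scaling on day 4 and was lower with RXRi from day 3, and Echs1 was lower with atRA on days 4 and 5 and did not pass with RXRi on those days.

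The effect of RXRi changed between day 3 and day 5 in 29 of the 34 genes, by a test of the day 5 effect minus the day 3 effect. All 29 differences were negative, where 13.7% of all genes had a positive and 16% a negative difference. The median was -0.97 against 0.03 for all genes. The largest were those of Acaa1b (-2.57 ± 0.31), Hadh (-2.32 ± 0.20), Ehhadh (-2.28 ± 0.16), Acad11 (-2.18 ± 0.21), Pex11a (-1.97 ± 0.20) and Crot (-1.61 ± 0.16), with adjusted p from 2.1e-08 to 8.4e-06. With the culture as a block 30 were negative and 1 positive, the latter being Acsl4, whose difference was 0.57 ± 0.28 with an adjusted p of 0.14 and of 0.041 with the block. For atRA 5 genes had a negative difference and 0 a positive one, where 1.98% and 0.667% of all genes did, with a median of -0.29 against 0.05. They were Pex11a (-1.05 ± 0.20, adjusted p = 0.0088), Acadl (-0.63 ± 0.16, adjusted p = 0.047), Acadvl (-0.54 ± 0.14, adjusted p = 0.047), Decr1 (-0.52 ± 0.12, adjusted p = 0.032) and Hadha (-0.39 ± 0.10, adjusted p = 0.039). The atRA count was 1 to 11 with a culture left out, 11 being without culture 2 of day 5 atRA, 8 with the block, 1 with median-of-ratios scaling and 0 with the shallow library kept. Pex11a passed in each of these but the last. Hadh had a difference of -0.75 ± 0.20, with an adjusted p of 0.054 and of 0.028 with the block.

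Within each treatment the rise from day 3 to day 5 seen in DMSO was also seen with atRA. 30 genes rose and 1 fell in DMSO, where 21.7% and 42.7% of all genes did. 29 rose and 2 fell with atRA, where 17.9% and 37.1% of all genes did. With RXRi 3 rose and 7 fell, where 14.6% and 35.4% of all genes did. The medians were 1.03, 0.67 and -0.03, against -0.19, -0.15 and -0.13 for all genes. With median-of-ratios scaling the medians of all genes were 0.02, 0.04 and 0.05. Acaa1b rose by 2.92 ± 0.22 in DMSO and 3.14 ± 0.22 with atRA, and had 11.4 and 10.8 RPKM on day 3 and 12.6 and 16.3 RPKM on day 5 with RXRi. Ehhadh rose by 2.45 ± 0.11 in DMSO and 2.35 ± 0.11 with atRA, and had 7.32 and 7.14 RPKM and 8.57 and 7.95 RPKM with RXRi. Hadh rose by 1.90 ± 0.14 in DMSO and had 29.1 and 29.2 RPKM and 22.1 and 20.8 RPKM with RXRi. The RXRi genes that fell most were Acat1 (-1.02 ± 0.10, adjusted p = 5.3e-07), Pex11a (-0.57 ± 0.14, adjusted p = 0.0034) and Etfdh (-0.52 ± 0.09, adjusted p = 0.00015), the ubiquinone oxidoreductase of the electron transfer step. These RXRi counts moved with the scaling. Median-of-ratios scaling moved the median of all genes from -0.13 to 0.05, and 13 of the 34 then rose and 2 fell, with Pex11a no longer passing (adjusted p = 0.089). Without culture 2 of day 3 RXRi 1 rose and 4 fell.

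The entry step is not among the 34 genes. Cpt1a, the carnitine palmitoyltransferase of the outer mitochondrial membrane that sets the rate of entry, had 29.4 and 27.2 RPKM in DMSO, 83.3 and 87.2 RPKM in atRA and 46.9 and 46.6 RPKM in RXRi on day 3. The differences were 1.56 ± 0.09 (adjusted p = 6.9e-09) and 0.71 ± 0.09 (adjusted p = 6.9e-06). On day 5 Cpt1a had 46.8 and 40.7, 95.4 and 88.6 and 45.7 and 47.5 RPKM, with differences of 1.06 ± 0.09 (adjusted p = 1.3e-06) and 0.09 ± 0.09 (adjusted p = 0.37). Slc25a20, the carrier of acylcarnitines, was higher with atRA by 1.62 ± 0.12 (adjusted p = 2e-07) on day 3 and by 0.95 ± 0.12 (adjusted p = 0.00013) on day 5. With RXRi Slc25a20 had a difference of 0.50 ± 0.12 (adjusted p = 0.0034) on day 3 and of -0.42 ± 0.12 (adjusted p = 0.0061) on day 5. The early rise and late fall with RXRi passed the test in Slc25a20 as well, and Cpt1a did not pass on day 5.

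Both genes belong to a list of 30 further genes of fatty acid oxidation, of which 29 were in the table and 26 were tested. 10 were higher and 1 lower with atRA over the 4 days, with a median of 0.14, where 7.98% and 15% of all genes were, with a median of -0.04. On day 5 with RXRi 3 were higher and 18 lower, with a median of -0.63, where 28.7% and 35.1% of all genes were, with a median of -0.06. The same shares and medians of all genes apply to the lists that follow. The largest fall there was that of Phyh, which starts the peroxisomal alpha-oxidation of branched chains, from 103 and 92.8 RPKM in DMSO to 5.75 and 4.55 RPKM in RXRi, a difference of -4.02 ± 0.12 (adjusted p = 2.1e-14). Acot4, a peroxisomal thioesterase, had a difference of -2.58 ± 0.20 (adjusted p = 4.7e-09) with RXRi on day 5 and of 1.20 ± 0.10 (adjusted p = 1.2e-07) with atRA over the 4 days. Slc25a17, a transporter of the peroxisomal membrane, went the other way, with -0.76 ± 0.05 (adjusted p = 2.3e-09) for atRA and 0.74 ± 0.09 (adjusted p = 2e-06) for RXRi.

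Downstream of the pathway, the citrate cycle, which burns the acetyl-CoA released, changed mainly with RXRi. 4 of its 16 genes were higher with atRA over the 4 days, with a median of 0.07 (all genes 7.98% and -0.04), and all 16 were lower with RXRi on day 5, with a median of -1.09 (all genes 35.1% and -0.06). The largest of these falls was that of Mdh2, mitochondrial malate dehydrogenase (-2.08 ± 0.14, adjusted p = 7.2e-10). Of 15 genes of peroxisome biogenesis 6 were higher with atRA over the 4 days, with a median of 0.09. With RXRi on day 5 1 was higher and 9 lower, led by Cat, the catalase that removes peroxisomal hydrogen peroxide (-1.58 ± 0.14, adjusted p = 4.6e-08).

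Among the transcription factors known to act on these genes, Ppara, the PPAR of fatty acid catabolism, moved in opposite directions with the treatments. In DMSO Ppara had 4.26 and 3.95 RPKM on day 0, 1.69 and 1.33 RPKM on day 3 and 11.7 and 11.7 RPKM on day 5. With atRA it had 14.5 and 14.3 RPKM on day 3 and 24.4 and 33.3 RPKM on day 5, and with RXRi 0.505 and 0.399 and 0.444 and 0.270 RPKM. No cultures overlapped. The differences of Ppara were 2.62 ± 0.15 (adjusted p = 8.5e-09) and 1.21 ± 0.15 (adjusted p = 9.6e-05) for atRA and -0.78 ± 0.15 (adjusted p = 0.00059) and -3.23 ± 0.15 (adjusted p = 8.8e-12) for RXRi. Ppard, the widely expressed PPAR, had 16.9 and 13.3 RPKM in DMSO and 37.6 and 40.8 RPKM in RXRi on day 5, a difference of 1.33 ± 0.12 (adjusted p = 3.5e-08). Pparg, the PPAR of fat cells, also higher with RXRi, had a day 5 difference of 1.24 ± 0.23 (adjusted p = 0.00014) for RXRi and of -0.94 ± 0.23 (adjusted p = 0.021) for atRA.

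Hnf4g, a receptor of differentiated intestinal epithelium, had 113 and 81.9 RPKM in DMSO, 87.5 and 66.3 RPKM in atRA and 7.19 and 6.42 RPKM in RXRi on day 5. Its difference was -3.63 ± 0.18 (adjusted p = 1.4e-11) for RXRi and -0.33 ± 0.18 (adjusted p = 0.37) for atRA. Hnf4a was also lower with RXRi on day 5, with a difference of -0.94 ± 0.09 (adjusted p = 1.3e-07), as was Ppargc1a, a coactivator of mitochondrial genes, with -1.82 ± 0.28 (adjusted p = 2.4e-05). In all, 2 of the 15 regulators tested, of 17 listed, were higher and 2 lower with atRA over the 4 days, and 3 were higher and 12 lower with RXRi on day 5. The atRA counts are near the shares of all genes, 7.98% and 15%, and for RXRi those shares were 28.7% and 35.1%. Whether these levels bear on those of the 34 genes was not tested.

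**Figure D4:**
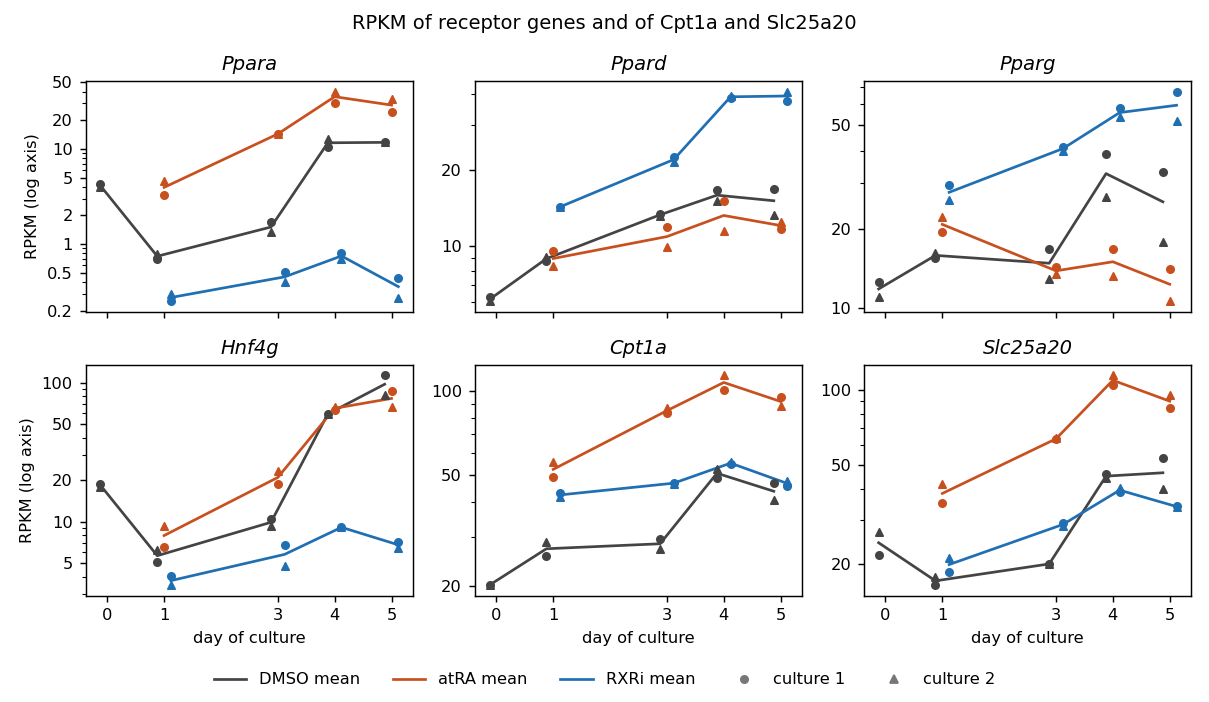
RPKM on a log axis by day of culture for Ppara, Ppard, Pparg, Hnf4g, Cpt1a and Slc25a20 in DMSO, atRA and RXRi; points are the 2 cultures and lines their mean. The 3 treatments are apart for Ppara on every day, with a day 5 mean of 28.9 RPKM in atRA, 11.7 in DMSO and 0.357 in RXRi, while Cpt1a in RXRi meets DMSO on days 4 and 5.

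Cell type markers moved with the treatments too. For comparison, 1.93%, 4.32% and 2.14% of all genes were higher with atRA on days 1, 3 and 5, and 1.53%, 4.36% and 2.89% lower. With RXRi on day 5, 28.7% were higher and 35.1% lower. Of 10 enterocyte markers 6 were higher with atRA on day 3 and 10 were lower with RXRi on day 5. Their summed level on day 3 was 289 and 305 RPKM in DMSO, 708 and 720.4 in atRA and 185 and 196 in RXRi. On day 5 it was 5465 and 6205, 4474 and 11229 and 259 and 256 RPKM. The atRA culture with the higher enterocyte sum on day 5, culture 2, also had the higher sum of the 34 genes, 4872 against 3812 RPKM. Most of the 34 genes were at a higher level in culture 2 than in culture 1, among them Acaa1b and Crat. A smaller number were at a lower level, among them Hadhb, Eci2 and Acsl3. Of 6 markers of fetal-like or regenerating epithelium 5 were lower with atRA on day 3 and 6 higher with RXRi on day 5. Their sum on day 5 was 525 and 291 RPKM in DMSO, 297 and 91.5 in atRA and 7073 and 7829 in RXRi. On day 1 with atRA 1 of the 10 enterocyte markers was higher. On day 5 with atRA 1 was higher and 1 lower, and the 2 atRA cultures lay far apart in their enterocyte sum. The stem cell markers Lgr5, Olfm4, Ascl2, Smoc2 and Axin2 were all lower with RXRi on day 5, with a summed level of 3.79 and 5.05 RPKM against 92.3 and 313 RPKM in DMSO. The 4 Paneth cell markers were all lower as well, with a median difference of -6.47, and with atRA 1 of the 4 was higher on day 3, the sum being 1118 and 910.1 against 655 and 574 RPKM. All 5 goblet cell markers were higher with atRA on day 3 (1466 and 1086 against 526 and 525 RPKM in sum) and 3 on day 5 (4168 and 2818 against 1974 and 1909 RPKM), and all 5 were lower with RXRi on day 5 (985 and 662 RPKM). All 6 proliferation markers were lower with RXRi on day 5, with a sum of 105 and 135 against 257 and 331 RPKM. Of 3 tuft cell markers tested 1 was higher and 2 lower there. The sum over 4 was 35.5 and 32.2 against 1.44 and 1.75 RPKM, and this rise does not describe the 2 that fell. The part of these cell types in the changes of the fatty acid oxidation genes was not tested.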

How the data were processed

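Messenger RNA of intestinal organoids was sequenced (TruSeq kit, per the labels' protocols). The authors deposited 1 table of RPKM with 52 library columns, matched by title. The submitters' processing notes list bcl2fastq 2.17, STAR 2.5.2b and, as the build, mm10. Counting tool, annotation and strand handling: not given in the sources used here. 23 rows have no symbol and were kept under their gene number.

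Reads were recovered from the steps of the RPKM values (100% of values above 0 within 0.001 of a whole read) and served for depth and 1 alternative. Intervals were not computed, since cultures, not reads, are the replicates. Duplicates were averaged per culture on the log2(RPKM + 1) scale, with 1 library of 12443 reads left out (the same figure as the number of genes tested is a coincidence). limma 3.58.1 (R 4.3.3, trend and robust) was fitted to 26 culture means of 13 groups, with 13 residual degrees of freedom, over genes of at least 1 RPKM in at least 4 libraries. 12443 genes were tested and 11673 were not. Tests were two-sided and adjusted by Benjamini-Hochberg within a comparison. The fit was also run on simulated data with an equal spread in all groups, no animal effect and changes in a single group. Those settings differ from these data, so that run is no check of the calls given here. Cultures pair by animal, per the labels. Between groups, over 78 pairs, the correlation of their deviations ranged from -0.317 to 0.759 (median 0.149) and exceeded 0.1 in 47, and the block was an alternative.

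Members, roles, lists of further pathway genes, regulators and cell type markers were chosen with earlier results of these data known. A fold change is given for up to 6 members each way past the threshold and 2 that did not pass in each comparison, for up to 3 genes each way of the other lists, for the regulators and for Cpt1a and Slc25a20. Some genes that this rule covers are not reported here. The day 5 against day 3 comparisons within a treatment were added after the data were seen. Alternatives were a pseudocount of 0.1, no filter, median-of-ratios scaling, the block, the shallow library kept, limma-voom on recovered reads, duplicates as rows with an estimated correlation (0.636), and each culture left out.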

Additional observations from a re-analysis of the deposited data

Results flagged for a closer look

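Each result here is the difference between the day 5 effect and the day 3 effect of a treatment, given because a test of that difference passed in limma. For RXRi these were Acaa1b (-2.57 ± 0.31, adjusted p = 8.4e-06), Hadh (-2.32 ± 0.20, adjusted p = 2.1e-07), Ehhadh (-2.28 ± 0.16, adjusted p = 2.1e-08), Acad11 (-2.18 ± 0.21, adjusted p = 6.8e-07), Pex11a (-1.97 ± 0.20, adjusted p = 1.5e-06) and Crot (-1.61 ± 0.16, adjusted p = 9.4e-07). On day 3 Acaa1b had 8.37 and 9.63 RPKM in DMSO and 11.4 and 10.8 RPKM in RXRi, and on day 5 72.7 and 75.8 against 12.6 and 16.3 RPKM. Crot had 8.80 and 7.19 against 10.1 and 9.64 RPKM on day 3 and 32.5 and 27.0 against 11.6 and 10.8 RPKM on day 5. In both genes the RXRi level moved less than the DMSO level between the days.

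For atRA they were Pex11a (-1.05 ± 0.20, adjusted p = 0.0088), Acadl (-0.63 ± 0.16, adjusted p = 0.047), Acadvl (-0.54 ± 0.14, adjusted p = 0.047), Decr1 (-0.52 ± 0.12, adjusted p = 0.032) and Hadha (-0.39 ± 0.10, adjusted p = 0.039). Pex11a had 6.04 and 6.63 RPKM in DMSO and 19.1 and 18.3 RPKM in atRA on day 3, and 17.8 and 19.0 against 19.4 and 30.1 RPKM on day 5. Acadl, Acadvl, Decr1 and Hadha lost the call with at least 1 culture left out, among them culture 1 of day 5 atRA for each of the 4 (adjusted p = 0.16, 0.16, 0.066 and 0.11), and Pex11a kept it with each culture left out.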

How the results depend on the processing

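Of the counts of higher and lower genes among the 34, recomputed under the alternatives, 408 stayed within 1.5 times the value given in the report, 82 fell below that and 14 rose above it. Of the fold changes named for a gene, 2118 kept their direction and side of the threshold, 194 lost the call, 56 gained it and 3 turned direction. limma-voom on the recovered reads moved no count by over 1.5 times. The cause was not tested for any change below, other than the smaller number of samples where a culture was left out.

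With the culture as a block, which pairs the groups by animal, the lower counts became 2 for atRA on day 4, 2 for atRA over the 4 days and 8 for atRA day 5 minus day 3, and RXRi day 5 minus day 3 had 1 higher. The block moved no other of these counts by over 1.5 times. With duplicates as rows and an estimated correlation the same 4 counts were 2, 2, 10 and 1, and 9 were higher with RXRi on day 1.

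A pseudocount of 0.1 left 0 lower in DMSO from day 3 to day 4. Without a filter on low values that count was 0, as were the lower count of atRA on day 4 and the higher count of RXRi on day 5, and 3 were lower for atRA day 5 minus day 3. With median-of-ratios scaling 0 were lower in DMSO from day 3 to day 4, in DMSO from day 0 to day 5, with atRA on day 4, with atRA over the 4 days and with atRA from day 3 to day 5. It left 3 higher with RXRi on day 1 and 1 lower for atRA day 5 minus day 3, and gave 13 higher and 2 lower with RXRi from day 3 to day 5.

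With the shallow library kept, the higher counts were 6 in DMSO from day 1 to day 3, 0 in DMSO from day 4 to day 5, 6, 13 and 10 with atRA on days 1, 4 and 5, 7, 1 and 0 with RXRi on days 3, 4 and 5, and 0 with RXRi from day 3 to day 5. The lower counts were 4 and 3 with RXRi on days 1 and 3 and 3 with RXRi from day 3 to day 5. They were 0 in DMSO from day 3 to day 4, from day 0 to day 5 and from day 3 to day 5, with atRA on days 4 and 5 and over the 4 days, for atRA day 5 minus day 3 and with atRA from day 3 to day 5.

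With 1 culture left out, the higher counts ranged from 0 to 1 in DMSO on day 1, 0 to 10 from day 1 to day 3 and 3 to 7 from day 4 to day 5. With atRA on day 1 they ranged from 7 to 9, with RXRi from 1 to 3 on day 1, 7 to 13 on day 3, 1 to 2 on day 4 and 0 to 1 on day 5, and with RXRi from day 3 to day 5 from 1 to 2. The lower counts ranged from 0 to 1 in DMSO from day 3 to day 4 and from day 0 to day 5, and with atRA on days 4 and 5, from 0 to 2 with atRA over the 4 days and from day 3 to day 5, and from 1 to 11 for atRA day 5 minus day 3. With RXRi they were 0 in each case on day 1, 3 to 5 on day 3 and 4 to 6 from day 3 to day 5.

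Acat1 went from -0.27 to 0.10 between days 0 and 5 in DMSO with median-of-ratios scaling, and from 0.06 to -0.035 between days 3 and 4 without culture 2 of day 4 DMSO (0.16 without culture 1). Acsl3 went from 0.13 to -0.0094 between days 3 and 5 in DMSO without culture 2 of day 3 DMSO (0.27 without culture 1). Each group holds 2 cultures, from the same 2 littermates throughout, and no value has been checked in other animals. The p-values rest on a spread between cultures that is shared by the 13 groups. They do not fully reflect the wider spread of day 5 atRA. The 34 genes had at least 39 reads in each library used.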
